A study of Homo sapiens with 9 samples.

Results

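The Krüppel-like factors (KLFs) are transcription factors that bind GC-rich and CACCC-type DNA through zinc fingers near their carboxyl end. Their 10 members described here were KLF2, KLF4, KLF5, KLF6, KLF9, KLF10, KLF11, KLF13, KLF15 and KLF16, taken by gene symbol from a table of 22587 genes. The table holds RNA-seq of HepG2, an established human line of liver tumor cells, in 3 groups of 3 libraries. The control group, Gln added, was labelled as normal medium with a GlutaMAX supplement (a stable dipeptide source of glutamine), and the other groups were deprived of glutamine (Gln) for 12 h or 24 h. The treatment text, in contrast, places GlutaMAX in the Gln-free medium, and the groups are named here by their sample labels. No time is given for the Gln added libraries, so that time in culture and Gln deprivation cannot be told apart. All groups shared high-glucose DMEM with serum as the maintenance medium and carried no genetic change. The labels do not say whether replicates were separate cultures, so the p-values measure the spread between these libraries, which may be technical.

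KLFs fall into subgroups by the domain outside the zinc fingers. KLF2, KLF4, KLF5 and KLF6 carry acidic activation domains, whereas KLF9, KLF10, KLF11, KLF13 and KLF16 carry a motif that recruits the SIN3 corepressor, and KLF15 belongs to neither. In the liver, KLF15 is known for driving amino acid breakdown and gluconeogenesis during fasting, KLF9 as a target of glucocorticoid hormones, KLF6 as a gene that responds early to injury, and KLF10 and KLF11 as early targets of transforming growth factor beta (TGF-β). Many KLF mRNAs are short-lived and are induced quickly by a stimulus.

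Levels are in FPKM, in which fragment numbers are divided by gene length and by sequencing depth. The libraries held between 29610525 and 36247903 fragments on the genes of the table. All 10 hepatocyte and HepG2 markers were above 1 FPKM in each group, and their summed level was 7496 to 7595 FPKM with Gln added, 6583 to 6655 FPKM after 12 h and 6367 to 6698 FPKM after 24 h. Of the other cell types, 3 of 5 endothelial markers had values, and their sum reached at most 0.366 FPKM. Among the fibroblast markers, 4 of 5 had values, and their sum moved with the groups, from 0.113 to 0.181 FPKM with Gln added to 0.317 to 0.513 FPKM after 12 h and 0.608 to 0.780 FPKM after 24 h. Nearly all of it was PDGFRB, since the collagen genes COL1A1, COL1A2 and COL3A1 stayed at or below 0.0171 FPKM. Of the immune markers, CD68 and CD14 had values, which summed to 37.4 to 37.7 FPKM with Gln added, 29.6 to 32.7 FPKM after 12 h and 22.2 to 26.9 FPKM after 24 h. The part of these markers in the KLF results was not tested.

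KLF transcripts were more abundant after Gln deprivation. In bulk RNA, more cells with a transcript and more of it per cell cannot be told apart. For the 10 members together, the summed level was 63.7 ± 0.858 FPKM (SD, n = 3) with Gln added, 119 ± 1.82 FPKM after 12 h and 133 ± 3.71 FPKM after 24 h. The groups did not overlap, and each pair of groups gave p = 0.1 in a two-sided exact permutation test, the smallest p that 3 libraries against 3 allow. A test across the table was run on the 11880 genes that averaged 0.5 FPKM or more over the 9 libraries, using limma on log2(FPKM + 0.1) with Benjamini-Hochberg adjustment and a threshold of 0.05. Of the 10 members, 7 passed this filter, and KLF2, KLF4 and KLF15 did not. KLF15 averaged 0.550 FPKM with Gln added, above the cut, but 0.375 FPKM after 12 h and 0.296 FPKM after 24 h. It was thus left out through its lower deprived levels, and the counts of tested members that fell do not cover it. At 12 h, 7 of the 7 tested members rose, against 29.1% of all tested genes, and none fell, against 31%. At 24 h, 7 of 7 again rose, against 33% of all tested genes, and none fell, against 31.7%. The median log2 fold change of the tested members was 0.89 at 12 h and 0.91 at 24 h, beside medians of -0.019 and 0.013 over all tested genes. Both comparisons use the same Gln added libraries, so the 24 h count is not a second independent result. The members were chosen with earlier results of these data known, so the counts describe them and do not test the family.

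**Figure D1:**
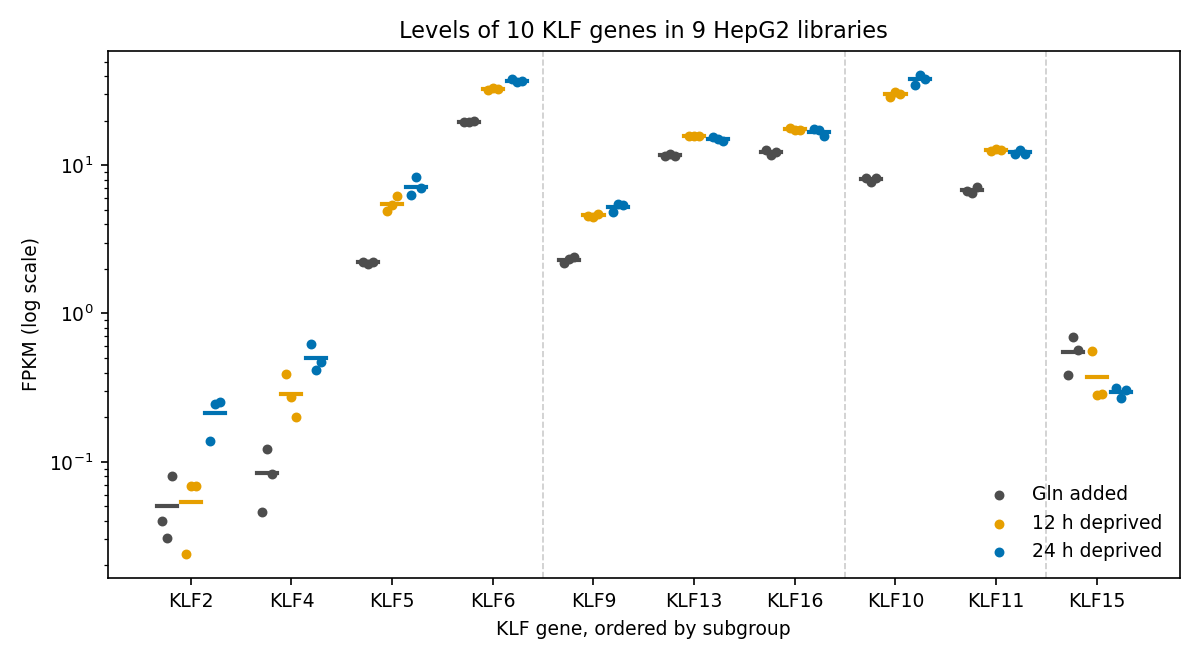
Level of each KLF gene in FPKM on a log axis, with a point for each of 3 libraries per group, a bar at the group mean and dashed lines between subgroups. KLF10 went from between 7.70 and 8.22 FPKM with Gln added to between 34.8 and 40.7 FPKM after 24 h, and KLF15 is the member whose 24 h points lie below all of its Gln added points.

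Read without a model, 8 of the 10 members were higher in every 12 h library than in every Gln added library, against 32.8% of the 11880 tested genes and 19.6% of all 22587 genes, and the groups of KLF2 and KLF15 overlapped. After 24 h, 9 of the 10 were higher without overlap, against 35.7% of tested and 22.8% of all genes. KLF15 was lower without overlap, as were 34.1% of tested and 20.9% of all genes. A rise of more than 1 on the log2 scale was called for KLF5 and KLF10 at 12 h, beside 2% of all tested genes, and for KLF5, KLF9 and KLF10 at 24 h, beside 3.21%.

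**Figure D2:**
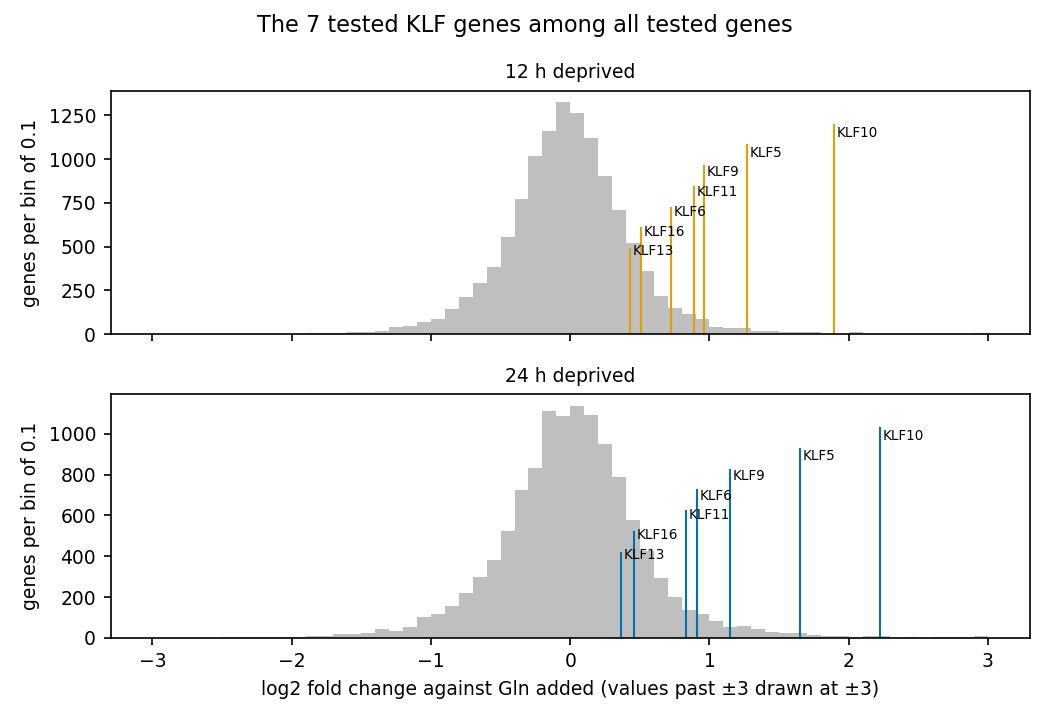
Histograms of the log2 fold change against Gln added for the 11880 tested genes (grey, genes per bin), after 12 h (top) and 24 h (bottom), with a labelled line for each of the 7 tested KLF genes. All 7 lines lie to the right of 0, from KLF13 at 0.43 and 0.36 to KLF10 at 1.89 and 2.22.

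Stretches of promoter sequence are shown for 4 members because they carry an E-box or a CRE upstream of the annotated start and are free of exons on the strand of the gene there, which the KLF11 windows are not. RefSeq windows on GRCh38.p14, from 250 bases before to 50 bases after each start, were found for 9 members, with 11 windows in all (KLF10 had none). An E-box, CACGTG, occurred in 4 of the 11 windows (36.4%), those of KLF4, KLF6, KLF11 and KLF15, beside 7.26% of all 35116 windows. A cAMP response element core (CRE), TGACGT, occurred in 2 windows (18.2%), of KLF11 and KLF13, beside 7.98%. A GC box, GGGCGG, which KLF and SP proteins can bind, occurred in 9 windows (81.8%), beside 45%. Motifs were searched on both strands. Matches could overlap, as GC boxes did in KLF15 and KLF16 and as CCACCC did with a GC box in KLF13. The stretches below read 5′ to 3′ on the strand of the gene and the capitals mark the E-box, the CRE and the GC box.
KLF4, chr9:107489770-107490019, minus strand: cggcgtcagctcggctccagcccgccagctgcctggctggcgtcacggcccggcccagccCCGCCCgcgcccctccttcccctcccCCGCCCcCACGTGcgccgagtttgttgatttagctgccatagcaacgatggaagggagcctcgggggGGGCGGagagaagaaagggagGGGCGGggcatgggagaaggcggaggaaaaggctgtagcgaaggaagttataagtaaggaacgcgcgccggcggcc
KLF6, chr10:3785282-3785459, minus strand: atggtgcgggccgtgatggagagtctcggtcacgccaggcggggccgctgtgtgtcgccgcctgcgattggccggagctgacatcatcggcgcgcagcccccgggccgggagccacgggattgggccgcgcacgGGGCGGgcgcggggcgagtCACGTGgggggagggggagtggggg
KLF13, chr15:31326585-31326834, plus strand: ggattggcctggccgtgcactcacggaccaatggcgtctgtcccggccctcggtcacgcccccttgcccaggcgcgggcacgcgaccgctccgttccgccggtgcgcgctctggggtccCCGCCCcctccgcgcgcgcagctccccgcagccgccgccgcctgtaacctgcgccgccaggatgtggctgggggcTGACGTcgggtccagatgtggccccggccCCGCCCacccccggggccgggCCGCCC
KLF15, chr3:126357409-126357658, minus strand: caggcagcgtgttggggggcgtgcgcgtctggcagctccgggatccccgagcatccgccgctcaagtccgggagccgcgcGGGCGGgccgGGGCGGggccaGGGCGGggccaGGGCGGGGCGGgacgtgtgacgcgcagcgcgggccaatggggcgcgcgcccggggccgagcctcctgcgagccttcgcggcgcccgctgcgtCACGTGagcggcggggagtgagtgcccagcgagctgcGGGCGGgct
Counted back from the start, the E-box began at base -157 in KLF4, at -97 in KLF6 and at -46 in KLF15, and the CRE of KLF13 began at -56. The stretch of KLF4 lies inside the GENCODE span of the gene but in no exon of it, and the others lie outside their genes. Of the 4 members with an E-box, KLF4, KLF6 and KLF11 were higher without overlap at 12 h and 24 h. The shares of all 22587 genes were 19.6% and 22.8%. Without an E-box in their windows, KLF5, KLF9, KLF13 and KLF16 were also higher without overlap at both times. KLF10, which had no window, was higher at both times too, and KLF2, with no E-box, at 24 h only. KLF15 overlapped the controls at 12 h and was lower without overlap at 24 h, beside 20.9% of all genes. The part of the E-box in these changes was not tested. A CACCC box, CCACCC, was in 1 window (9.09%), of KLF13, beside 34.3% of all windows. No member window held TGANTCA (AP-1), TGATGNAA (the C/EBP-ATF response element), GTAAACA (FOXO) or the CArG box of serum response factor, which were in 7.71%, 3.62%, 3.42% and 1.29% of all windows. These matches describe the letters of the windows, and no binding was measured.

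Among the members with activation domains, KLF6 was the most abundant and KLF5 changed the most of those tested. KLF6 lies on the minus strand of chromosome 10 (GENCODE v44, GRCh38, 3775996 to 3785281). KLF6 was at 19.6, 19.5 and 19.99 FPKM in the Gln added libraries, 32.1, 32.9 and 32.6 after 12 h and 37.9, 36.4 and 36.9 after 24 h. Within a group its libraries differed little, and the 3 groups did not overlap. KLF6 rose 1.65-fold at 12 h, a log2 fold change of 0.72 (SE 0.0337, limma adjusted p = 3.61e-08), and 1.88-fold at 24 h, a log2 fold change of 0.91 (limma adjusted p = 4.24e-09). KLF5, which is known for promoting proliferation in epithelia, lies on the plus strand of chromosome 13 (73054976 to 73077541). KLF5 was at 2.22, 2.17 and 2.24 FPKM in the Gln added libraries, 4.92, 5.36 and 6.20 after 12 h and 6.26, 8.28 and 7.01 after 24 h. The deprived libraries scattered more than the controls, although the highest 12 h library was still below the lowest 24 h library. KLF5 rose 2.49-fold at 12 h (log2 fold change 1.27, SE 0.104, limma adjusted p = 2.34e-06) and 3.25-fold at 24 h (log2 fold change 1.65, limma adjusted p = 2.21e-07). In rank from the highest log2 fold change, KLF5 was number 130 of 11880 at 12 h and number 85 at 24 h.

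KLF4, a pluripotency and epithelial differentiation factor, and KLF2, known from endothelial cells and quiescent lymphocytes, were barely detected. KLF4 lies on the minus strand of chromosome 9 (107484852 to 107490482), and 9.75% of its exonic bases overlap a gene on the other strand. KLF4 was at 0.0461, 0.122 and 0.0833 FPKM in the Gln added libraries, 0.389, 0.272 and 0.201 after 12 h and 0.625, 0.416 and 0.472 after 24 h. These levels rested on 5, 13 and 9 fragments in the Gln added libraries, 35, 30 and 22 after 12 h and 68, 42 and 50 after 24 h. Every 12 h library was above every control library, and every 24 h library above every 12 h library. When the filter on low values was dropped, so that all 22587 genes were tested, limma called KLF4 higher at 12 h (log2 fold change 1.07, adjusted p = 0.00864) beside 15% of all genes. At 24 h its log2 fold change was 1.72 (limma without a filter, adjusted p = 0.000507), beside 18.2% of all genes called higher. With voom weights on the recovered fragments and no filter, which was chosen after seeing the data, the log2 fold changes of KLF4 were 1.75 and 2.61 (adjusted p = 0.00430 and 6.42e-05), beside 15.6% and 19.1% of genes called higher. On log2(FPKM + 0.1) the change of a gene near 0.1 FPKM is understated, and voom adds a smaller offset of its own to the fragments.

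KLF2 lies on the plus strand of chromosome 19 (16324826 to 16328685). KLF2 was at 0.0397, 0.0304 and 0.0798 FPKM in the Gln added libraries, 0.0239, 0.0685 and 0.0689 after 12 h and 0.139, 0.245 and 0.254 after 24 h. Behind these values stood 4, 3 and 8 fragments in the Gln added libraries, 2, 7 and 7 after 12 h and 14, 23 and 25 after 24 h. The control and 12 h libraries overlapped, while the 24 h libraries were all higher. Without the filter, the log2 fold change of KLF2 at 12 h was 0.04 (limma adjusted p = 0.965) and KLF2 rose at 24 h by 1.05 on the log2 scale (limma adjusted p = 0.00358), beside 18.2% of all genes called higher. With voom and no filter the 24 h value was 2.03 (adjusted p = 0.00275), beside 19.1%, and the mean FPKM was 4.26-fold that of the controls. Between 12 h and 24 h it rose by 1.02 on the log2 scale (limma without a filter, adjusted p = 0.0193), beside 4.02% of all genes, and by 1.94 with voom (adjusted p = 0.0172), beside 4.63%. This call was lost without 12 h replicate 1 (adjusted p = 0.0789), 12 h replicate 2 (0.0547), 24 h replicate 2 (0.0800) or 24 h replicate 3 (0.0830). The 3 endothelial markers with values (of 5 listed) summed to 0.203 to 0.366 FPKM with Gln added, 0.124 to 0.208 FPKM after 12 h and 0.165 to 0.194 FPKM after 24 h, and their part in the KLF2 result was not tested.

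**Figure D3:**
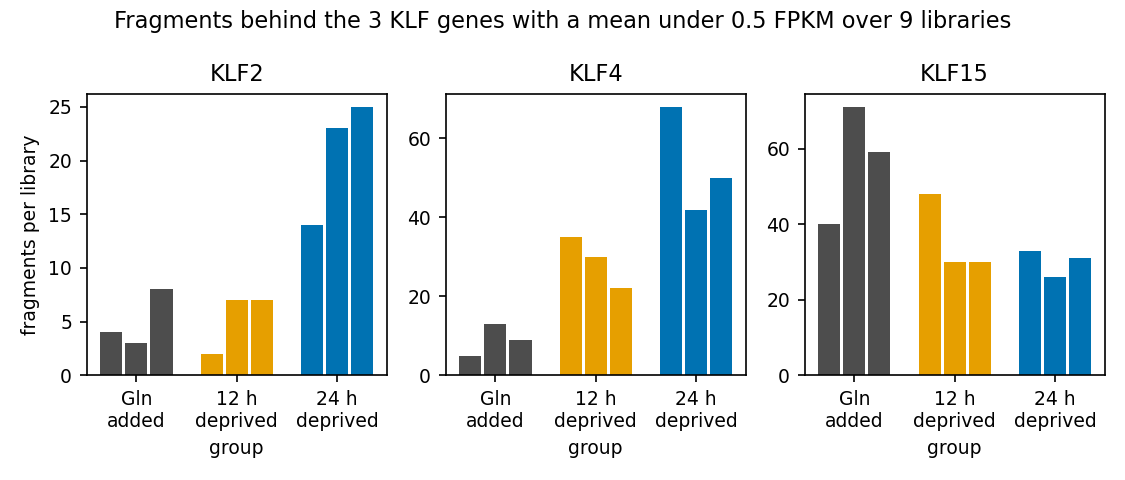
Fragments per library for KLF2, KLF4 and KLF15, the 3 members under the filter on low values, with a bar for each of 3 libraries per group and a separate vertical axis for each gene. KLF2 had 3 to 8 fragments with Gln added and 14 to 25 after 24 h, KLF4 5 to 13 and 42 to 68, and KLF15 40 to 71 and 26 to 33.

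Of the SIN3-binding members with a short repressor region, KLF9 had larger log2 fold changes than KLF13 and KLF16. KLF9 lies on the minus strand of chromosome 9 (70384604 to 70414657). KLF9 was at 2.20, 2.34 and 2.39 FPKM in the Gln added libraries, 4.54, 4.50 and 4.71 after 12 h and 4.84, 5.49 and 5.41 after 24 h. No control library came near the deprived ones, and the 12 h and 24 h libraries did not overlap. KLF9 rose 1.98-fold at 12 h (log2 fold change 0.96, SE 0.0652, limma adjusted p = 5.88e-07) and 2.27-fold at 24 h (log2 fold change 1.15, limma adjusted p = 9.8e-08). KLF13, first known as a regulator of the chemokine CCL5 in T cells, lies on the plus strand of chromosome 15 (31326835 to 31435665). KLF13 was at 11.6, 12.0 and 11.6 FPKM in the Gln added libraries, 15.7, 15.8 and 15.8 after 12 h and 15.6, 15.1 and 14.6 after 24 h. Its 24 h libraries were all slightly below its 12 h libraries and all above the controls. KLF13 rose 1.35-fold at 12 h (log2 fold change 0.43, SE 0.0398, limma adjusted p = 6.04e-06) and 1.29-fold at 24 h (log2 fold change 0.36, limma adjusted p = 1.51e-05).

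KLF16, described as a repressor that acts on dopamine receptor genes, lies on the minus strand of chromosome 19 (1852399 to 1863579), and 16.28% of its exonic bases overlap a gene on the opposite strand. KLF16 was at 12.7, 11.7 and 12.2 FPKM in the Gln added libraries, 17.8, 17.3 and 17.1 after 12 h and 17.5, 17.2 and 15.7 after 24 h. The deprived libraries were all above the controls, and the 12 h and 24 h libraries overlapped. KLF16 rose 1.43-fold at 12 h (log2 fold change 0.51, SE 0.0504, limma adjusted p = 9.54e-06) and 1.38-fold at 24 h (log2 fold change 0.46, limma adjusted p = 1.66e-05). KLF13 and KLF16 made up 37.6 ± 0.678% (SD, n = 3) of the summed KLF level with Gln added and 24.1 ± 1.23% after 24 h.

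The TGF-β-inducible pair, KLF10 and KLF11, parted in size. KLF10, a repressor that slows growth, lies on the minus strand of chromosome 8 (102648784 to 102655725). KLF10 was at 8.20, 7.70 and 8.22 FPKM in the Gln added libraries, 28.7, 31.2 and 30.4 after 12 h and 34.8, 40.7 and 38.4 after 24 h. The lowest 12 h library was more than 3 times the highest control, and no groups overlapped. KLF10 rose 3.75-fold at 12 h (log2 fold change 1.89, SE 0.0591, limma adjusted p = 1.92e-09) and 4.72-fold at 24 h (log2 fold change 2.22, limma adjusted p = 4.49e-10), which placed it at number 39 and number 27 of 11880 genes from the highest log2 fold change. KLF11, its closest relative, lies on the plus strand of chromosome 2 (10042849 to 10054836), and 9.06% of its exonic bases overlap a gene on the other strand. KLF11 was at 6.70, 6.53 and 7.17 FPKM in the Gln added libraries, 12.4, 12.9 and 12.7 after 12 h and 12.0, 12.7 and 11.9 after 24 h. The deprived libraries stood well above the controls and overlapped between 12 h and 24 h. KLF11 rose 1.87-fold at 12 h (log2 fold change 0.89, SE 0.0488, limma adjusted p = 1.19e-07) and 1.79-fold at 24 h (log2 fold change 0.83, limma adjusted p = 1.24e-07). The ratio of KLF10 to KLF11 in FPKM went from 1.18 ± 0.0390 (SD, n = 3) with Gln added to 2.37 ± 0.0527 after 12 h and 3.11 ± 0.181 after 24 h, with p = 0.1 for each pair of groups in a two-sided exact permutation test.

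KLF15 was the only member whose mean level was lower at both times. KLF15 lies on the minus strand of chromosome 3 (126342635 to 126357408). KLF15 was at 0.384, 0.697 and 0.569 FPKM in the Gln added libraries, 0.556, 0.284 and 0.286 after 12 h and 0.316, 0.268 and 0.305 after 24 h. These levels rested on 40, 71 and 59 fragments in the Gln added libraries, 48, 30 and 30 after 12 h and 33, 26 and 31 after 24 h. Replicate 1 after 12 h lay among the controls, whereas the other deprived libraries were below all controls. Without the filter, the log2 fold change of KLF15 was -0.47 at 12 h (limma adjusted p = 0.234) and -0.69 at 24 h (limma adjusted p = 0.0764), so neither passed the threshold. With voom and no filter the 24 h value was -0.84 (adjusted p = 0.0460) and passed, beside 17.6% of all genes called lower. Under limma without a filter the 24 h call was gained without 12 h replicate 1 (adjusted p = 0.0349) or without Gln added replicate 1 (0.0449). The call of KLF15 thus depended on the test and on single libraries.

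**Figure D4:**
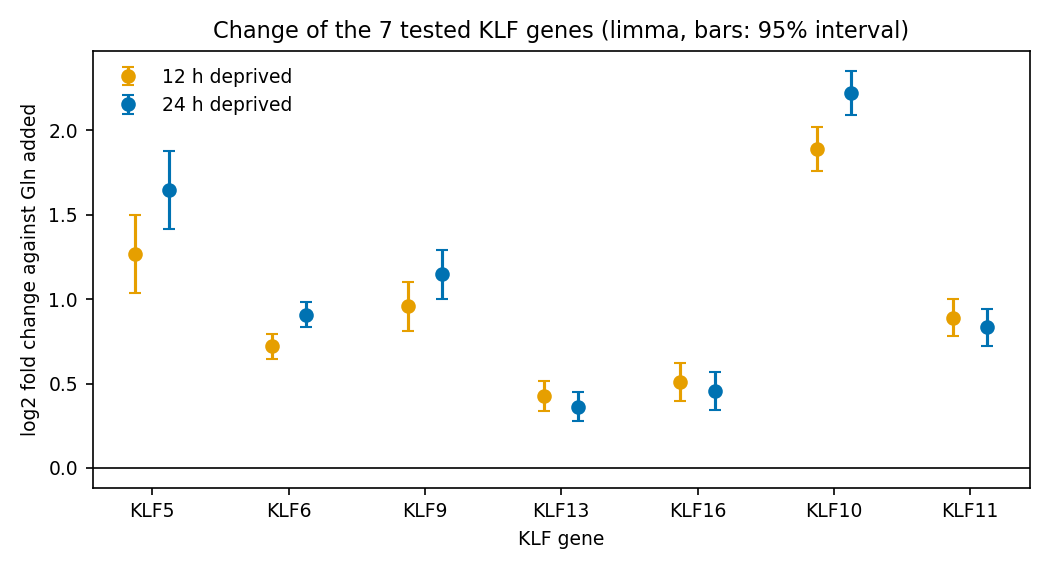
Log2 fold change against Gln added of the 7 tested KLF genes after 12 h and 24 h, from limma, with bars for the 95% confidence interval. Each interval lies above 0, and KLF10 (1.89 and 2.22) and KLF5 (1.27 and 1.65) stand highest.

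Between 12 h and 24 h of deprivation, 3 of the 7 tested members rose further, against 9.57% of all tested genes, and none fell, against 10.5%. These were KLF10, with a log2 difference of 0.33 (SE 0.0591, limma adjusted p = 0.00322), KLF6, with 0.19 (SE 0.0337, adjusted p = 0.00340), and KLF5, with 0.38 (SE 0.104, adjusted p = 0.0277). The call of KLF5 was lost in 6 of 19 alternative analyses, among them those without 12 h replicate 1 (adjusted p = 0.101), 12 h replicate 2 (0.0825), 24 h replicate 2 (0.0834) or 24 h replicate 3 (0.0647). KLF9 had a log2 difference of 0.19 that missed the threshold (limma adjusted p = 0.0651), and it passed without 24 h replicate 1 (adjusted p = 0.0250) and with voom (0.0478). The log2 differences of KLF13, KLF16 and KLF11 were -0.06, -0.05 and -0.06, with 95% intervals of -0.15 to 0.02, -0.17 to 0.06 and -0.17 to 0.05 and limma adjusted p of 0.297, 0.499 and 0.454. Over all 10 members, 6 were higher in every 24 h library than in every 12 h library, against 17.5% of tested and 12.7% of all genes. KLF13 was lower in that way, against 16.9% and 9.92%, and KLF11, KLF15 and KLF16 overlapped.

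With these changes the order of the KLF levels shifted. With Gln added, KLF6 stood first, followed by KLF16 and KLF13, which overlapped, and then KLF10, KLF11, KLF9 with KLF5, which overlapped, KLF15, and KLF4 with KLF2, which overlapped. After 12 h, KLF10 was second behind KLF6, and KLF5 had passed KLF9. After 24 h, KLF10 and KLF6 were at 38.0 ± 2.99 and 37.1 ± 0.797 FPKM (SD, n = 3) and overlapped, and KLF4 had passed KLF15. KLF10 gave 12.6 ± 0.319% (SD, n = 3) of the summed level with Gln added, 25.2 ± 0.671% after 12 h and 28.6 ± 1.62% after 24 h. KLF6 gave 30.9 ± 0.151%, 27.3 ± 0.155% and 28.0 ± 1.31%.

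**Figure D5:**
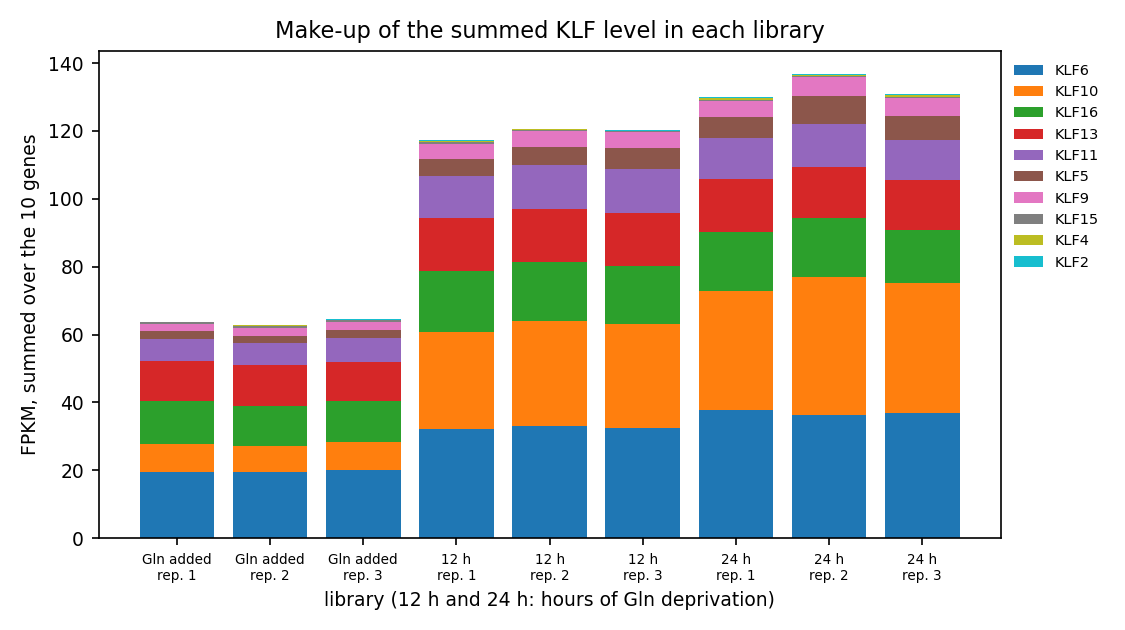
Summed FPKM of the 10 KLF genes in each of the 9 libraries, stacked by gene. The sum goes from 63.7 FPKM on average with Gln added to 119 FPKM after 12 h and 133 FPKM after 24 h, and the KLF10 block grows from 12.6% to 28.6% of it.

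For likeness to KLF10, the log2(FPKM + 0.1) profile of each gene over the 9 libraries was taken minus its mean over the Gln added libraries. Changes from control were thus compared, not levels. By Euclidean distance between these profiles, the closest of 10867 genes were IER2 (0.341), CTH (0.365), IER3 (0.372), AQP3 (0.374) and ERN1 (0.378). IER2 and IER3 are immediate early response genes, CTH encodes the enzyme that makes cysteine from cystathionine, AQP3 a channel for water and glycerol, and ERN1 a stress sensor of the endoplasmic reticulum. IER2 had log2 fold changes of 1.77 at 12 h and 2.18 at 24 h, CTH of 2.04 and 2.14, IER3 of 2.05 and 2.18, AQP3 of 1.90 and 2.22, and ERN1 of 2.06 and 2.27.

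Other genes around the KLFs were counted with the same test, beside the shares of 29.1% higher and 31% lower at 12 h and 33% higher and 31.7% lower at 24 h. Of the 7 other KLF genes, only KLF3 and KLF12 passed the filter, and both rose at both times. KLF3, a repressor that works through CtBP, went from 19.6 ± 0.167 FPKM (SD, n = 3) to 30.1 ± 1.81 FPKM at 12 h and 29.9 ± 2.26 FPKM at 24 h (log2 fold change 0.61 and 0.61). KLF12, a related repressor, went from 1.499 ± 0.120 FPKM to 2.20 ± 0.119 and 2.37 ± 0.117 FPKM (log2 fold change 0.53 and 0.63). Of the related SP factors, which bind the same GC boxes, 5 were tested, of which 2 rose and none fell at 12 h, and 3 rose and 1 fell at 24 h, with median log2 fold changes of 0.11 and 0.18. SP2 had log2 fold changes of 0.84 and 0.56, SP1 of 0.34 and 0.48, and SP3 of 0.11, which missed the threshold, and 0.18. The SP gene that fell at 24 h was SP5 (log2 fold change -0.17, limma adjusted p = 0.0188), the most abundant of those tested. SP5 was at 73.0 ± 2.07 FPKM (SD, n = 3) with Gln added and 64.9 ± 4.26 FPKM after 24 h.

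Among 9 tested cofactors that KLF proteins recruit, 4 rose and 2 fell at 12 h, and 3 rose and 1 fell at 24 h (median log2 fold change 0.23 and 0.08). The acetyltransferase genes CREBBP and EP300 had log2 fold changes at 24 h of 0.98 and 0.53, and the corepressor gene SIN3B of 0.45. SIN3A rose at 12 h (0.23) and was not called at 24 h (0.08). HDAC1 fell at both times (-0.20 and -0.11, limma adjusted p = 0.00244 and 0.0422). KAT2A fell at 12 h (-0.19, limma adjusted p = 0.00565) and was not called at 24 h. CREBBP was at 7.75 ± 0.0840 FPKM (SD, n = 3) with Gln added, 15.6 ± 0.533 FPKM after 12 h and 15.4 ± 0.976 FPKM after 24 h. Of 7 ubiquitin ligases that act on KLF proteins, 5 rose at 12 h and 6 at 24 h and none fell (median log2 fold change 0.31 and 0.40), with SMURF1 at 0.79, SIAH1 at 0.69 and VHL at 0.48 on the log2 scale at 24 h.

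Upstream, the kinase and transcription factor arm of ERK5 and MEF2 that controls KLF2 and KLF4 in endothelium had 5 tested genes, of which 3 rose at 12 h and 4 at 24 h and none fell (median log2 fold change 0.42 and 0.31). Its largest log2 fold changes at 24 h were those of MEF2D (0.99), MEF2A (0.62) and MAP2K5 (0.31). MAPK7, the gene of ERK5 itself, was not called at 12 h or 24 h (log2 fold change -0.16 and -0.20, limma adjusted p = 0.197 and 0.107). In the TGF-β arm, which is known to induce KLF10 and KLF11, 5 of 8 tested genes rose at 12 h and 4 at 24 h, and none fell (median log2 fold change 0.36 and 0.29). The ligand gene TGFB1 went from 14.8 ± 0.663 FPKM (SD, n = 3) to 26.9 ± 2.18 and 38.8 ± 2.49 FPKM, and the receptor gene TGFBR2 had log2 fold changes of 0.74 and 1.03. SMAD3, a signal transducer of the pathway, had log2 fold changes of 0.58 and 0.85. SMAD7 rose at 12 h (log2 fold change 0.15) and was not called at 24 h (-0.04). Between 12 h and 24 h SMAD7 fell by 0.19 on the log2 scale (limma adjusted p = 0.0291). TGFBR1, SMAD2 and SMAD4 were not called at 12 h or 24 h. The part of this arm in the KLF changes was not tested.

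Of the glucocorticoid receptor and its targets, to which KLF9 is linked, 5 of 6 tested genes rose at 12 h, and 4 rose and 1 fell at 24 h (median log2 fold change 0.85 and 0.79). TSC22D3, which encodes the anti-inflammatory factor GILZ, went from 0.437 ± 0.0776 FPKM (SD, n = 3) to 2.99 ± 0.0910 FPKM at 12 h and 3.52 ± 0.110 FPKM at 24 h. With Gln added, TSC22D3 was under the 0.5 FPKM of the filter, which it passed only through the deprived libraries. The phosphatase gene DUSP1 had log2 fold changes of 1.27 and 1.29, and the tyrosine aminotransferase gene TAT of 1.26 and 1.20. The receptor target that fell at 24 h was FKBP5 (log2 fold change -0.27, limma adjusted p = 0.00366), and it was not called at 12 h (-0.12). Circadian clock genes are linked to KLF9, KLF10 and KLF15 in liver. Among 10 tested, 6 rose and 1 fell at 12 h, and 6 rose and none fell at 24 h (median log2 fold change 0.43 and 0.39). PER1 is in both lists. At 24 h the log2 fold change was 1.41 for NR1D1, 0.89 for CRY1 and 0.81 for BHLHE40. CLOCK was not called at 12 h (log2 fold change 0.15) and rose at 24 h (0.19, limma adjusted p = 0.0450). BMAL1 was not called at either time (-0.03 and -0.06). The clock gene that fell at 12 h was DBP (-0.64), and it was not called at 24 h (-0.17). The part of the clock in the KLF changes was not tested.

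Genes known as KLF targets in liver or cell cycle arrest moved in both directions. Of 6 tested, 1 rose and 4 fell at 12 h, and 2 rose and 4 fell at 24 h (median log2 fold change -0.55 and -0.67). The list was not split by whether KLF proteins raise or lower each gene. These counts therefore do not show whether targets followed the KLFs. CDKN1A was not called at 12 h (log2 fold change -0.07) and rose at 24 h (0.32), and CCND1 fell at both times (-0.24 and -0.44). DIO1, a thyroid hormone deiodinase that KLF9 is known to induce, fell from 9.57 ± 0.728 FPKM (SD, n = 3) to 3.76 ± 0.214 FPKM at 12 h and 2.36 ± 0.234 FPKM at 24 h. BCAT2, a branched-chain aminotransferase under KLF15 in muscle, had log2 fold changes of -0.85 and -1.02 and fell at both times. G6PC1, the last enzyme of gluconeogenesis, rose from 1.74 ± 0.108 FPKM to 3.36 ± 0.109 FPKM at 12 h and 5.11 ± 0.414 FPKM at 24 h.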

How the data were processed

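RNA-seq of 9 HepG2 libraries in 3 groups of 3 was analysed. The deposited values are FPKM for each gene in each library, made by the authors. According to the methods and the submitters' processing notes, reads were aligned to GRCh38 with STAR, and HTSeq and R 3.2.0 are named without a role. The annotation is not given in the sources used here. The labels and the methods name different library kits. Whether counting used strand is unknown, and reads of genes that overlap on opposite strands may not be separated. All 9 columns of values were matched to samples by their labels, and 0 columns were left unused.

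FPKM are not counts. Gene length and depth fix what a single fragment is worth, and from the low values whole fragments (within 0.05 of a fragment) came out for 22578 of 22587 genes (99.9602%), and summed to 29610525 to 36247903 per library. On simulated data for 4806 genes, 9 of 9 library totals were recovered, and all fragments of 95.21% of genes. Intervals and fragment numbers cover only what 3 libraries per group allow.

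Tests used limma 3.58.1 under R 4.3.3 (eBayes with a trend) on log2(FPKM + 0.1), which understates the change of low genes, for 11880 genes averaging 0.5 FPKM or more. All 3 groups entered 1 fit, and p-values were adjusted by Benjamini-Hochberg. On data simulated for the 12 h comparison, with 200 genes changed by 1 on the log2 scale, 191 of the 199 that were tested were called (96%), and 9 of 200 calls were false (4.5%). In the data, 7147 of 11880 genes were called at 12 h, so the simulation had far fewer changed genes and its false share may not carry over. Limma's voom on the recovered fragments was an alternative. Replicate pairs differed by more than counting noise, and none was counted as 1 sample. Whether the numbers of the replicates pair the samples was not settled. Only 2 of 9 same-numbered pairs correlated over 0.1, both between 12 h and 24 h (0.252 for replicate 1 and 0.283 for replicate 3). Replicate 2 gave -0.136 there, and pairs with different numbers reached 0.296. With 3 libraries per group this check cannot show that pairing is absent.

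The members, the gene lists and the motifs were chosen with earlier results of these data known. All 10 members are named. From each list, up to 3 tested genes averaging 1 FPKM or more and having the largest absolute log2 fold change at 24 h are named, and for likeness the 5 genes closest to the member with the largest rise. FKBP5, MAPK7, CLOCK, BMAL1, DBP, SMAD7, TGFBR1, SMAD2, SMAD4, SP5, HDAC1, KAT2A, SIN3A, CDKN1A and CCND1 are named in addition. No tested member fell, so no gene was sought for a fall. A gene of the TGF-β list is not reported here, and that list was counted without it. Promoter sequences are RefSeq's, on GRCh38.p14, and positions are GENCODE v44's. Protein sequences were not used here. Figures were drawn with matplotlib 3.10.9.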

Additional observations from a re-analysis of the deposited data

Results flagged for a closer look

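Of the tested members, 3 changed by different amounts at the 2 times of deprivation, by a test of the difference itself (limma, 24 h minus 12 h, Benjamini-Hochberg over 11880 genes). The log2 difference was 0.3315 for KLF10 (adjusted p = 0.00322, higher in 3 of 3 libraries), 0.1871 for KLF6 (adjusted p = 0.0034, higher in 3 of 3 libraries) and 0.3776 for KLF5 (adjusted p = 0.0277, higher in 3 of 3 libraries). The cause of these differences was not tested.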

How the results depend on the processing

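The number of members called higher was 7 at 12 h and 7 at 24 h, and 8 and 9 when the filter on low values was dropped, which adds KLF4 at 12 h and KLF2 and KLF4 at 24 h. Between 12 h and 24 h the unfiltered number was 3, with KLF2 in and KLF5 out. Leaving out each library in turn gave 7 to 7 members at 12 h, 7 to 7 at 24 h and 2 to 4 between 12 h and 24 h, where the main number was 3. With the replicate number as a block, the numbers were 7, 7 and 3, and no call of a member changed. None of the fold changes of the 7 tested members changed sign under the alternatives tried (pseudocounts of 1 and 0.01, a filter at 0 or 1 FPKM, 2 other scalings between libraries, only the groups compared, the block, no trend, voom, and each library left out). KLF5 between 12 h and 24 h ranged from 0.27 to 0.47 on the log2 scale, with adjusted p from 0.00966 to 0.101, and besides the libraries named with it the call was lost without a filter (0.0771) and with only the 2 groups in the fit (0.0606). KLF6 and KLF10 kept this call in 19 of 19 alternatives. The alternatives without a filter in which each library was left out, or in which voom was used, were added after seeing the data. In them the 24 h rise of KLF2 had adjusted p up to 0.0227, that of KLF4 up to 0.00434, and its 12 h rise up to 0.0397. The 12 h value of KLF2 lay between -0.058 and 0.18 on the log2 scale, and that of KLF15 between 12 h and 24 h between -0.35 and 0.04. With 2 to 71 fragments per library, depth limits what can be said of KLF2, KLF4 and KLF15.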
